A study of Sus scrofa with 16 samples.

Results

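SLC34A3, SLC13A1 and SLC5A12 are 3 sodium-coupled carriers of the epithelial cell's luminal membrane, and their levels were followed along the pig small intestine. They were found by symbol among the 25880 genes of the files, with the identifiers ENSSSCG00000040105 for SLC34A3, ENSSSCG00000016609 for SLC13A1 and ENSSSCG00000013338 for SLC5A12. They were picked because earlier work on these counts had shown large differences between regions, so the differences in enterocytes below are a description and carry no test.

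SLC34A3 encodes NaPi-IIc, which brings inorganic phosphate into the cell together with sodium and is best known from the kidney proximal tubule. SLC13A1 encodes NaS1, a sodium-sulfate cotransporter of kidney and gut. The sulfate it brings in is made into the activated donor PAPS by the PAPSS enzymes, and sulfotransferases then use it on hormones, drugs and mucins. SLC5A12 encodes SMCT2, a low-affinity sodium-coupled carrier of lactate and other short monocarboxylates. In the intestine such carriers sit on enterocytes, the absorptive cells of the villus, while goblet cells make mucus and enteroendocrine cells release hormones.

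Cells came from mixed-breed female pigs 7.5 weeks old, with no treatment named. DUOD was the start of the duodenum, next to the pylorus. JEJ was jejunum from about 3 feet below that. IPP and NoPP were ileum 2 to 12 inches above the ileocecal valve, with Peyer's patches (gut lymphoid follicles) and without them. The labels give 4 titles for each region but there was 1 pooled matrix per region and no map from cells to titles. Each region was therefore 1 sample, nothing was tested between regions, and differences between pigs cannot be told apart from differences between regions. Values are UMIs (counted transcript molecules, by their 3' ends and so not scaled by gene length) summed over a class of cells and scaled to the class's own total, written CPM (the usual per-1000000 scale). Intervals are 95%, exact, and cover counting error only.

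Matrices held 44726845 to 91813234 UMIs. Between 718 and 3273 barcodes per region met the limits of 1000 UMIs, 500 genes and 25% mitochondrial UMIs, and 121 NoPP barcodes were dropped because another matrix held 10 or more times their UMIs. Of the DUOD barcodes kept, 128 also held 1000 or more UMIs in the NoPP matrix, 111 of them enterocyte-like, while no other pair of matrices shared more than 12. Marker gates found 208 enterocyte-like cells in DUOD (median depth 25638.5 UMIs), 195 in JEJ (5831), 165 in IPP (16000) and 33 in NoPP (15888). FABP6, the ileal bile acid binding protein, was at 24130 CPM in IPP and 69500 CPM in NoPP against 0.297 CPM in JEJ. TMPRSS15, the duodenal enteropeptidase, was at 2379 CPM in DUOD and at most 28.0 CPM elsewhere, so both regional markers followed the labels. In enterocyte-like cells, summed T or innate lymphoid markers ran from 31.6 to 146 CPM and summed goblet markers from 116 to 1275 CPM, highest in DUOD. Summed enteroendocrine markers in them were at 141 CPM in IPP and between 17.25 and 80.1 CPM elsewhere. CHGA, 1 of these, was at 94.9 CPM in IPP and at most 2.11 CPM elsewhere. All 6 B cell markers were at 0 in DUOD and NoPP. The part of these other markers in the values below was not tested.

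The 3 carriers had different regional profiles in enterocyte-like cells. SLC34A3 was highest in JEJ. SLC13A1 was seen almost exclusively in the 2 ileal samples. SLC5A12 was near background in DUOD, intermediate in JEJ and highest in ileum. In JEJ against DUOD, SLC34A3 and SLC5A12 were at least 2-fold higher, beside 9.23% of the 8700 genes with at least 20 UMIs over both groups (20.7% in either direction). In NoPP against JEJ, SLC13A1 and SLC5A12 were at least 2-fold higher (9.18% of 7372 genes) and SLC34A3 was at least 2-fold lower (14.7%, and 23.9% in either direction). In IPP against JEJ the 3 carriers went the same ways (10.8% of 8210 genes higher, 14.3% lower and 25.1% in either direction). No carrier passed 2-fold between IPP and NoPP, where 7.45% of 6829 genes were higher in IPP, 5.18% lower and 12.6% either. SLC5A12 did pass it there, at 2.49-fold higher in IPP with a 10% mitochondrial limit and at 2.66-fold over all epithelial-like cells. The first value rests on 3 UMIs in 8 NoPP cells. The second sets unlike mixes of classes side by side. Enterocyte-like cells were 165 of 252 epithelial-like cells in IPP and 33 of 136 in NoPP. The part of this mix was not tested. The comparisons between regions chose the carriers, and the 2 ileal comparisons share the JEJ cells.

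**Figure D1:**
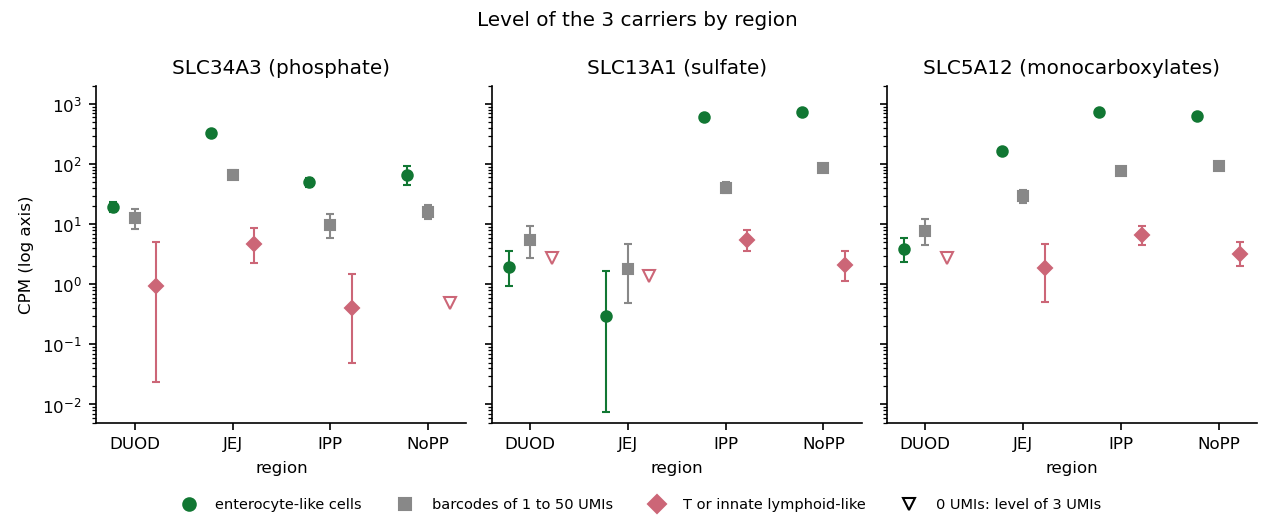
Level of each carrier (CPM, log axis) by region in enterocyte-like cells, in barcodes of 1 to 50 UMIs and in T or innate lymphoid-like cells, with exact 95% counting intervals; open triangles mark 0 UMIs, drawn at the level of 3 UMIs. SLC34A3 stands highest in JEJ at 334 CPM, SLC13A1 is above its near-empty barcodes in IPP and NoPP only, and SLC5A12 is above them in JEJ, IPP and NoPP.

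SLC34A3 stood at 19.4 CPM in DUOD (15.8 to 23.5, 100 UMIs), 334 CPM in JEJ (315 to 354, 1123 UMIs), 49.6 CPM in IPP (41.4 to 58.9, 129 UMIs) and 65.3 CPM in NoPP (44.4 to 92.7, 31 UMIs). The order was JEJ, then the 2 ileal samples, then DUOD, and the IPP and NoPP intervals overlapped. The JEJ level was 17.3-fold that of DUOD (14.1 to 21.4). NoPP was 5.11-fold lower than JEJ (3.58 to 7.56) and IPP was 6.74-fold lower (5.61 to 8.15). Both ileal samples were above DUOD, by 3.38-fold in NoPP (2.18 to 5.09) and 2.56-fold in IPP (1.96 to 3.36). IPP over NoPP was 0.759 (0.510 to 1.16).

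SLC34A3 in DUOD was close to the level of near-empty barcodes. Barcodes of 1 to 50 UMIs, which hold RNA from the cell suspension and not whole cells, had 12.6 CPM in DUOD (8.39 to 18.2), and the enterocyte-like cells were 1.53-fold above that (1.00 to 2.42). The same ratio was 5.00 in JEJ (4.21 to 5.99), 5.17 in IPP (3.21 to 8.75) and 4.11 in NoPP (2.57 to 6.48). Lymphoid cells of the T or innate class, which should lack the carrier, were at 4.66 CPM in JEJ and at or below 0.924 CPM in the other 3 regions. In DUOD the enterocyte-like cells were 21.0-fold above these lymphoid cells (3.68 to 836). Near-empty barcodes are not a clean measure of a region's own free RNA. FABP6 in them was 183 CPM in DUOD and 169 CPM in JEJ, against 0.297 CPM in JEJ enterocyte-like cells. The source of that FABP6 was not tested.

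JEJ enterocyte-like cells split by their mitochondrial share differed in SLC34A3. The 97 cells below the median share had 208 CPM (170 to 253, median depth 2699 UMIs) and the 98 others had 356 CPM (334 to 378, median depth 34400 UMIs). Both sets were above every other region. In DUOD many enterocyte-like cells carried TM4SF1 at 1 UMI per 10000 or more, and SLC34A3 was at 16.9 CPM (13.1 to 21.5) in those 138 cells and at 27.3 CPM (18.8 to 38.3) in the 70 cells below that level. This split was chosen after its values were seen.

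SLC13A1 had 10 UMIs in DUOD (1.94 CPM, 0.928 to 3.56) and 1 UMI in JEJ (0.297 CPM, 0.00753 to 1.66). It had 1573 UMIs in IPP (605 CPM, 575 to 635) and 345 UMIs in NoPP (727 CPM, 652 to 808). The ileal samples were both high and the proximal samples both low, with no overlap of their intervals. Against JEJ the ratio was 2444 in NoPP (436 to 96820) and 2033 in IPP (364 to 80350), wide because JEJ had a single UMI. With the cell of most UMIs left out of each region, JEJ had 0 UMIs and the ratios were at least 755 in NoPP and at least 664 in IPP. JEJ and DUOD could not be ranked, with a ratio of 0.154 (0.00354 to 1.08).

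All 10 DUOD UMIs of SLC13A1 lay in 1 cell of 11754 UMIs. The same cell held 13 of the 20 SLC5A12 UMIs, 586 of the 589 FABP6 UMIs and all 9 UMIs of the ileal bile acid carrier SLC10A2, but 0 of the 12289 TMPRSS15 UMIs. Its barcode had 488 UMIs in the NoPP matrix and 19 in the IPP matrix. The other DUOD enterocyte-like cells had 0 SLC13A1 UMIs (upper limit 0.716 CPM). Near-empty barcodes held 5.41 CPM in DUOD (2.79 to 9.45) and 1.83 CPM in JEJ (0.498 to 4.68), so neither proximal sample was above its near-empty barcodes.

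Between the ileal samples SLC13A1 had no stable order. IPP over NoPP was 0.832 (0.740 to 0.937), and it was 1.03 when each cell was weighted equally. With the left-out NoPP barcodes kept it was 1.16. Another matrix held 10 or more times the UMIs of those barcodes, so that value cannot rank the ileal samples. The NoPP level also rested on cells over 10% mitochondrial UMIs, where 25 cells had 752 CPM (675 to 836). The 8 NoPP cells at or under 10% had 0 UMIs of it (upper limit 232 CPM, from their 15909 UMIs in all), although FABP6 stood at 105500 CPM in them. In IPP the 15 cells at or under 10% had 362 CPM (238 to 526) and the 150 others had 612 CPM (582 to 643).

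SLC5A12 stood at 3.87 CPM in DUOD (2.37 to 5.98, 20 UMIs), 165 CPM in JEJ (151 to 179, 554 UMIs), 745 CPM in IPP (712 to 779, 1938 UMIs) and 626 CPM in NoPP (557 to 701, 297 UMIs). Levels followed the order DUOD, JEJ, NoPP, IPP, and no intervals overlapped between neighbours in that order, though NoPP and IPP were close. JEJ was 42.6-fold above DUOD (27.3 to 70.2), 118-fold above it with the cell of most SLC5A12 UMIs left out of each region, and 20.0-fold above it when each cell was weighted equally. NoPP was 3.80-fold above JEJ (3.29 to 4.38) and IPP was 4.52-fold above JEJ (4.11 to 4.98). With only cells at or under 10% mitochondrial UMIs the NoPP ratio was 1.57, from 3 NoPP UMIs, and over all epithelial-like cells it was 1.64. IPP over NoPP was 1.19 (1.05 to 1.35), and under the same 2 settings it was 2.49 and 2.66.

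Without the single ileal-like cell, SLC5A12 in DUOD was 1.36 CPM (0.546 to 2.80, 7 UMIs), below the 7.66 CPM of near-empty DUOD barcodes. Elsewhere the enterocyte-like cells were above their near-empty barcodes, by 5.63-fold in JEJ (4.34 to 7.41), 9.77-fold in IPP (8.31 to 11.6) and 6.73-fold in NoPP (5.73 to 7.89). Cells of the T or innate lymphoid class held between 0 and 6.57 CPM of it in the 4 regions.

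Single cells showed how widely each carrier was spread. SLC34A3 had a UMI in 69.2% of JEJ enterocyte-like cells (62.2 to 75.6), against 27.4% in DUOD, 45.5% in IPP and 54.5% in NoPP (36.4 to 71.9). After every cell was thinned to 1000 UMIs to equalise depth, these shares were 25.1% in JEJ (19.2 to 31.8) and 1.92% in DUOD (0.526 to 4.85). They were 3.03% in IPP (0.991 to 6.93) and 0 of 33 cells in NoPP (upper limit 10.6%). T or innate lymphoid-like cells had an SLC34A3 UMI in 1.77% of cells in JEJ and at most 0.289% elsewhere, at median depths of 2844 to 3515 UMIs. JEJ stood apart from the other regions after thinning, while before it the JEJ and NoPP intervals overlapped.

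SLC13A1 had a UMI in 89.1% of IPP enterocyte-like cells (83.3 to 93.4) and 75.8% of NoPP ones (57.7 to 88.9), and in 33.9% and 33.3% after thinning. Only 1 of 208 DUOD cells and 1 of 195 JEJ cells had one. SLC5A12 had a UMI in 90.9% of IPP cells (85.5 to 94.8), 72.7% of NoPP cells (54.5 to 86.7), 49.2% of JEJ cells (42.0 to 56.5) and 3.85% of DUOD cells. Thinned shares of SLC5A12 put IPP (45.5%) and NoPP (39.4%) above JEJ (16.4%), with overlapping intervals for the ileal samples. The share of T or innate lymphoid-like cells with a UMI reached 1.99% for SLC13A1 and 2.14% for SLC5A12, both in IPP.

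**Figure D2:**
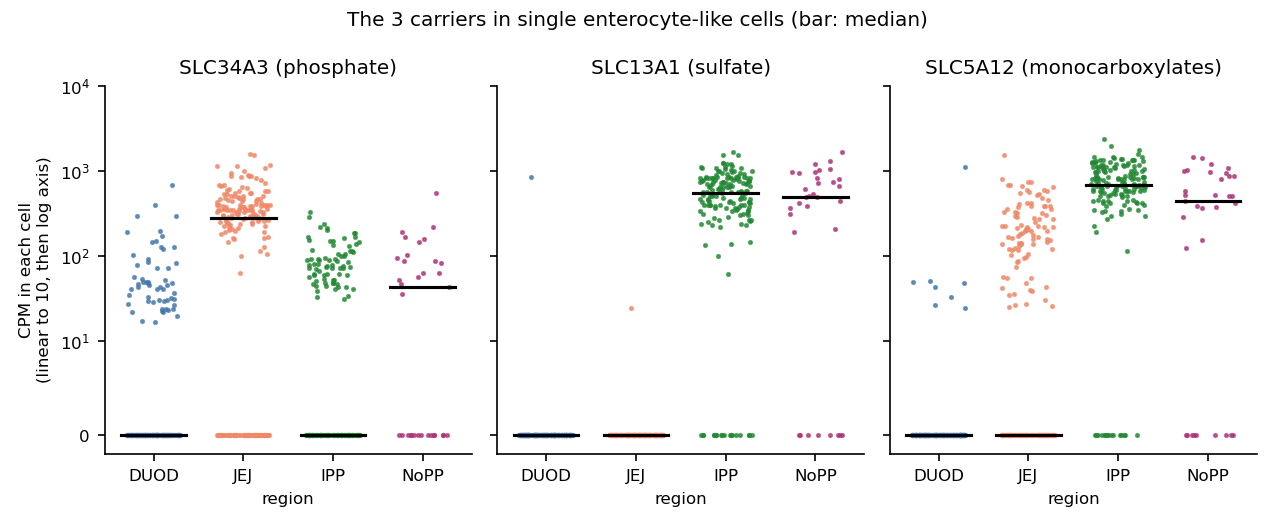
CPM of each carrier in each of the 601 enterocyte-like cells (linear to 10, then log axis) by region; points are cells and bars are medians. The IPP medians are 555 for SLC13A1 and 684 for SLC5A12, the JEJ median of SLC34A3 is 280, and the single DUOD cell with SLC13A1 also stands out for SLC5A12.

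Where a carrier was high, its UMIs were spread over many cells. The 20 of 195 JEJ cells with the most SLC34A3 UMIs held 34.4% of them, and the top 16 of 165 IPP cells held 24.4% of the SLC13A1 UMIs and 23.4% of the SLC5A12 UMIs. SLC5A12 in JEJ was less even, with 51.1% in its top 20 cells and a median cell at 0. In DUOD, where levels were low, the top 21 of 208 cells held 61.0% of the SLC34A3 UMIs and all UMIs of the other two. The median IPP cell had 555 CPM of SLC13A1 (quartiles 337 and 795) and 684 CPM of SLC5A12 (quartiles 461 and 1020).

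The carriers often had UMIs in the same cells, which high detection alone would largely bring about. In IPP, 144 of 165 enterocyte-like cells had UMIs of both SLC13A1 and SLC5A12, and all 75 cells with SLC34A3 also had SLC5A12. In JEJ, 86 of 195 cells had both SLC34A3 and SLC5A12, 49 had SLC34A3 alone and 10 had SLC5A12 alone. In IPP, SLC5A12 had a UMI in 90.9% of cells and SLC13A1 in 89.1%, so most cells must hold both. The overlap therefore does not show that the carriers go together. Over 145 IPP cells of at least 5000 UMIs, SLC34A3 and SLC5A12 had r = 0.0548 (Pearson's). Deep cells are more likely to show any gene, so these counts also follow depth.

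In JEJ cells of at least 5000 UMIs, each carrier was compared with a short chosen set of genes and the other carriers, not with all genes. Within this set SLC34A3 went most with the brush border enzymes SI (sucrase-isomaltase, Pearson's r = 0.627 over 101 cells) and ANPEP (aminopeptidase N, r = 0.602). It went less with the sugar carriers SLC5A1 (r = 0.449) and SLC2A2 (r = 0.39), VIL1 (r = 0.228), PDZK1 (r = 0.195) and SLC5A12 (r = 0.186). FABP2 (r = -0.0511), APOA1 (r = -0.245) and APOA4 (r = -0.301) did not go with it. These, like SI, ANPEP and VIL1, are markers of the enterocyte gate. SLC5A12 in the same cells went most with SLC2A2 (r = 0.556) and SLC5A1 (r = 0.547), and then with SI (r = 0.435). In IPP, over 145 cells, SLC13A1 and SLC5A12 had r = 0.302 with each other. Cells of a region share 1 library, and SLC34A3 in JEJ also went with the mitochondrial percent (r = 0.506), so these values are descriptions.

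Outside enterocytes the carriers parted ways. Goblet-like cells were low in all of them: SLC34A3 was at most 9.17 CPM and SLC5A12 was highest in IPP at 29.4 CPM (17.1 to 47.1). SLC13A1 in IPP goblet-like cells was 24.2 CPM (13.2 to 40.6), with 7 of its 14 UMIs in 1 of 38 cells. None of these goblet values was above the near-empty barcodes of its region. A cell would reach that level only if all its UMIs were free RNA, so lower values can still come from the cell. BEST4 enterocyte-like cells, a CFTR-rich absorptive type, were numerous only in JEJ, where 42 cells had 27.8 CPM of SLC34A3 (10.2 to 60.6) and 18.6 CPM of SLC5A12 (5.06 to 47.5), 12.0-fold and 8.88-fold below enterocyte-like cells. These levels were 0.417 (0.151 to 0.930) and 0.634 (0.168 to 1.71) of the near-empty JEJ barcodes. JEJ T or innate lymphoid-like cells were lower, at 4.66 CPM of SLC34A3 (2.24 to 8.57) and 1.86 CPM of SLC5A12 (0.508 to 4.77). The part of free RNA in the BEST4 levels was not tested. Crypt epithelial-like cells are the proliferating cells from which enterocytes arise. In JEJ they had 82.1 CPM of SLC34A3 (37.6 to 156, 14 cells), 4.07-fold below enterocyte-like cells. That was not above the near-empty barcodes (ratio 1.23, 0.552 to 2.40) but was above SLC34A3 in T or innate lymphoid-like cells. In NoPP the 7 crypt epithelial-like cells had 51.5 CPM of it (20.7 to 106), which was 3.25-fold above the near-empty barcodes (1.25 to 7.13), and enterocyte-like over crypt epithelial-like cells was 1.27 (0.548 to 3.41). IPP had a single such cell, with 3 UMIs, and the same ratio was 0.795 (0.266 to 3.91). SLC5A12 was at 0 in the 14 JEJ cells (upper limit 33.7 CPM).

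**Figure D3:**
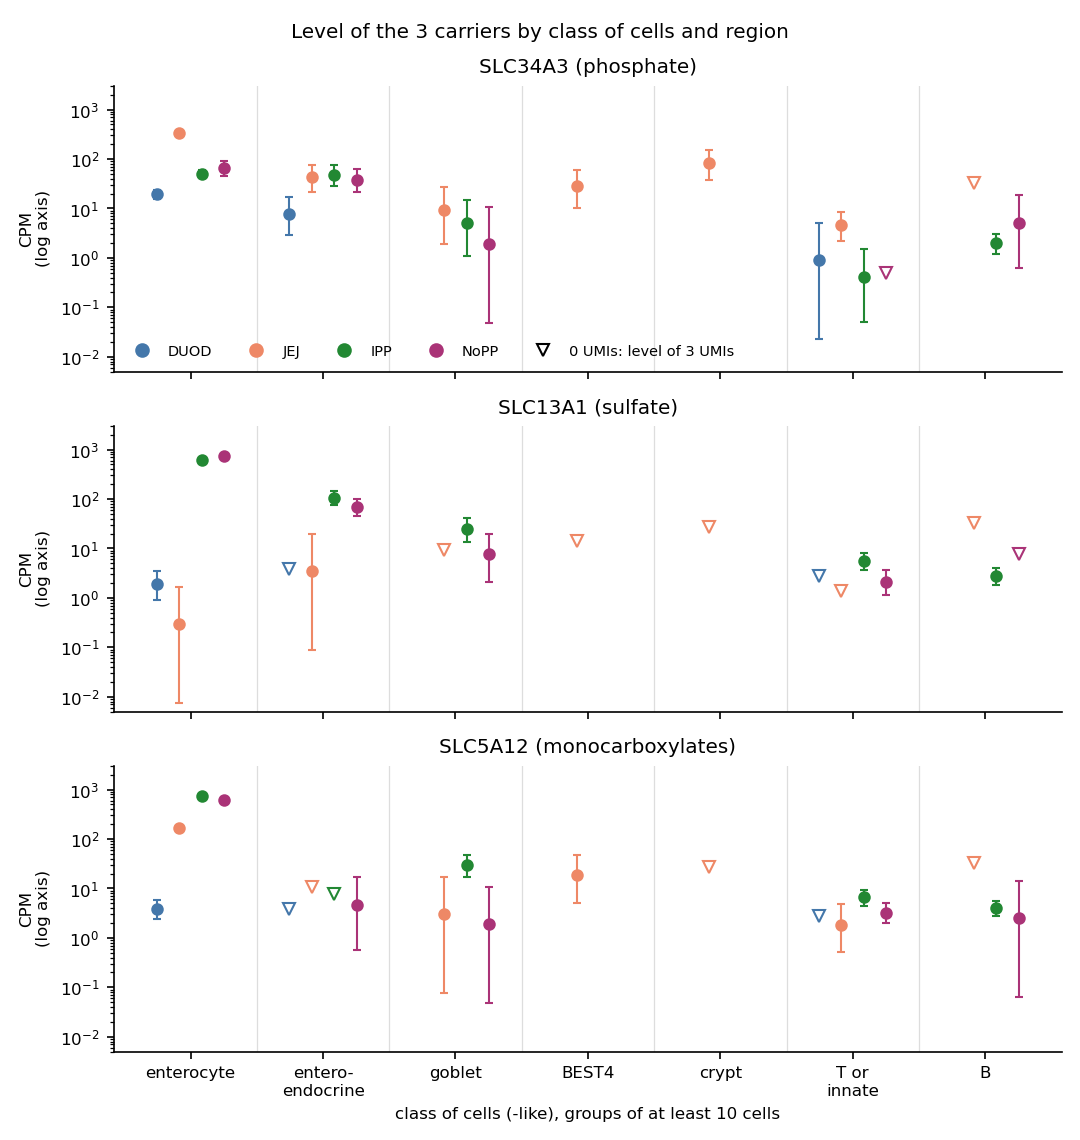
Level of each carrier (CPM, log axis) by class of cells and region for groups of at least 10 cells, with exact 95% counting intervals; open triangles mark 0 UMIs, drawn at the level of 3 UMIs. Enterocyte-like cells are highest for SLC13A1 in ileum and SLC5A12 in JEJ and ileum, while enteroendocrine-like cells of IPP reach 107 CPM for SLC13A1 and 47.0 CPM for SLC34A3.

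Enteroendocrine-like cells were above the near-empty barcodes for SLC34A3 in IPP and NoPP and for SLC13A1 in IPP, and held 2 SLC5A12 UMIs in all. SLC34A3 in them was 7.78 CPM in DUOD (2.85 to 16.9, 38 cells), 42.6 CPM in JEJ (22.0 to 74.4, 18 cells), 47.0 CPM in IPP (27.9 to 74.3, 28 cells) and 37.9 CPM in NoPP (21.6 to 61.5, 41 cells). Thus the JEJ peak of enterocytes was not seen in enteroendocrine-like cells, where JEJ, IPP and NoPP overlapped. Enterocyte-like over enteroendocrine-like cells was 7.84 in JEJ (4.47 to 15.2) and 1.06 in IPP (0.642 to 1.84). The enteroendocrine-like level was not above the near-empty barcodes in DUOD (0.616 of their level, 0.209 to 1.52) or JEJ (0.638, 0.323 to 1.15). It was 4.90-fold above them in IPP (2.44 to 9.76) and 2.38-fold above them in NoPP (1.28 to 4.21).

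SLC13A1 in enteroendocrine-like cells was 107 CPM in IPP (76.8 to 145, 41 UMIs in 14 of 28 cells) and 68.6 CPM in NoPP (45.9 to 98.5, 29 UMIs in 13 of 41 cells). It was at 0 in 38 DUOD cells (upper limit 4.78 CPM) and at 1 UMI in 18 JEJ cells. The JEJ interval (0.0899 to 19.8) lay below those of both ileal samples. These levels were 5.65-fold (IPP, 4.15 to 7.90) and 10.6-fold (NoPP, 7.25 to 16.1) below enterocyte-like cells. Against near-empty barcodes the IPP cells were 2.63-fold higher (1.76 to 3.86), and the NoPP cells were at 0.808 of that level (0.532 to 1.18). T or innate lymphoid-like cells were lower in both, at 5.54 CPM in IPP (3.65 to 8.06) and 2.12 CPM in NoPP (1.13 to 3.62).

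The carriers were also set against FABP6, an abundant transcript of ileal enterocytes. FABP6 is itself a marker of the enterocyte gate, and enteroendocrine-like and goblet-like cells had to fall under that gate. Their ratios to FABP6 are thus raised in part by the gate and are no separate support. IPP enterocyte-like cells had 2.51 SLC13A1 UMIs per 100 FABP6 UMIs, near-empty barcodes had 2.09 and T or innate lymphoid-like cells had 3.51. Enteroendocrine-like cells had 146 per 100 (88.4 to 246). In NoPP the same values were 1.05, 1.47 and 1.48, against 36.3 in enteroendocrine-like cells (22.9 to 56.1). SLC5A12 outnumbered SLC13A1 in IPP enterocyte-like cells (1938 against 1573 UMIs), yet enteroendocrine-like cells had 0 SLC5A12 UMIs beside 41 of SLC13A1. SLC13A1 and SLC5A12 were thus not present in them in the ratio of enterocytes or of near-empty barcodes.

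**Figure D4:**
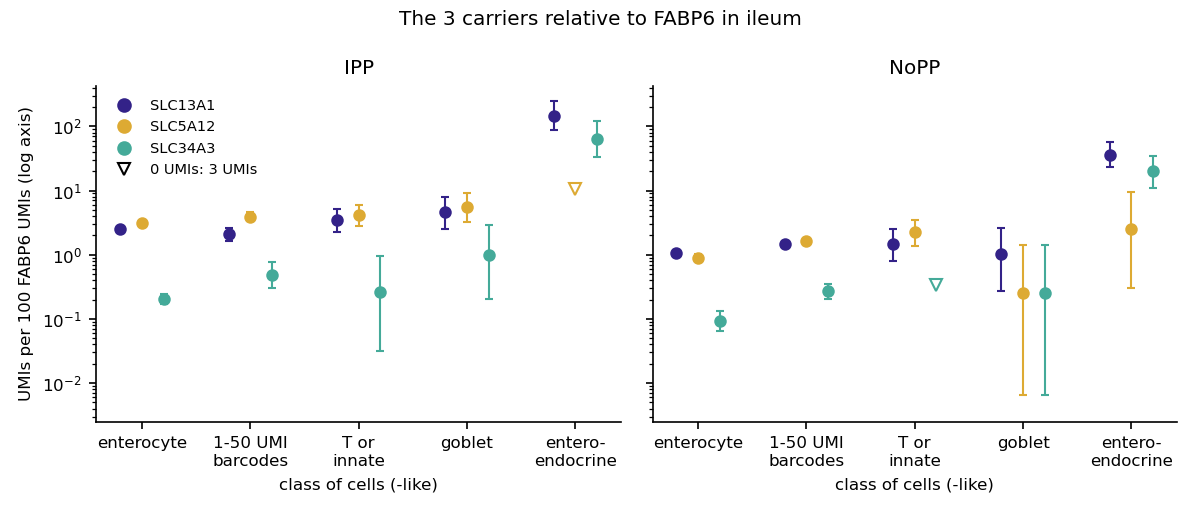
UMIs of each carrier per 100 FABP6 UMIs (log axis) in classes of cells and near-empty barcodes of IPP and NoPP, with exact 95% counting intervals; open triangles mark 0 UMIs, drawn at 3 UMIs. SLC13A1 lies between 2.09 and 4.59 in the first 4 IPP groups and at 146 in enteroendocrine-like cells, while SLC5A12 has no UMI in the latter. FABP6 is a marker of the enterocyte gate, which goblet-like and enteroendocrine-like cells had to fall under.

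When enteroendocrine-like cells were split by hormone, a split chosen after the values were seen, SLC13A1 was unevenly placed. In IPP, 40 of the 41 UMIs lay in the 14 cells with at least 10 CHGA UMIs per 10000 (chromogranin A, a granule protein) and under 1% of UMIs from peptide hormones. Those cells had 252 CPM (180 to 343) with a UMI in 13 of 14 cells, against 1 UMI in the 12 cells led by a hormone other than somatostatin. In NoPP the 11 cells of the first kind had 133 CPM (74.2 to 219), with a UMI in 5 cells. The 10 somatostatin-led cells there had 131 CPM (69.7 to 224), with a UMI in 7 cells, and the 20 cells led by another hormone had 1 UMI. Both NoPP intervals include the 85.0 CPM of near-empty NoPP barcodes. The 2 somatostatin-led cells of IPP had 0 UMIs. The 8 CHGA-high cells of DUOD and the 8 of JEJ had 0 UMIs. SLC34A3 in the CHGA-high cells was 31.5 CPM in DUOD (3 UMIs), 81.4 CPM in JEJ (9 UMIs), 69.3 CPM in IPP (11 UMIs) and 70.7 CPM in NoPP (8 UMIs).

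Other genes of phosphate handling were read from a list of 27, 25 of them in the files, with SLC34A3 counted among them. In JEJ against DUOD, 7 of 15 measured genes (at least 20 UMIs over both groups) were at least 2-fold higher and 3 were at least 2-fold lower, beside 9.23% and 11.4% of all genes. The median log2 ratio was 0.79, beside 0.03 over all genes. In NoPP against JEJ, 2 of 13 were higher and 5 lower, beside 9.18% and 14.7% of all genes, with a median of -0.40 beside -0.11. In IPP against JEJ it was 2 and 6 of 13, beside 10.8% and 14.3%. Between IPP and NoPP none of 12 passed 2-fold, beside 12.6% of all genes.

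The nearest relatives of SLC34A3 gave no signal: SLC34A1 (NaPi-IIa of the kidney) and SLC34A2 (NaPi-IIb, the carrier best known in the intestine) had 0 UMIs in the enterocyte-like cells of each region. The limit of 3 UMIs is 0.581 CPM in DUOD and 6.32 CPM in NoPP, the deepest and the shallowest group. How well the counted gene models cover the 3' ends of these genes was not tested, so 0 UMIs does not show absence. SLC20A1, the sodium-phosphate cotransporter PiT-1, stood at 49.4 CPM in DUOD, 11.3 CPM in JEJ, 125 CPM in IPP and 143 CPM in NoPP. Its JEJ level was 4.37-fold below DUOD (3.10 to 6.31), and NoPP was 12.7-fold above JEJ (8.40 to 19.4). Thus the region with the most SLC34A3 had the least SLC20A1. XPR1, the phosphate exporter, was at 15.5 CPM in JEJ and at 1 UMI in NoPP. SLC20A2 (PiT-2) had at most 7 UMIs in any region.

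PDZK1, a scaffold protein that holds carriers such as the NaPi-II family at the brush border, was at 48.0 CPM in DUOD, 453 CPM in JEJ, 529 CPM in IPP and 719 CPM in NoPP. It was 9.43-fold higher in JEJ than in DUOD (8.24 to 10.8), as SLC34A3 was, but it was not lower in ileum. ANKH, a pyrophosphate and citrate exporter, went from 211 CPM in DUOD to 124 in JEJ and 33.1 and 21.1 in IPP and NoPP. VDR, the vitamin D receptor, was 2.59-fold lower in NoPP than in JEJ (1.69 to 4.18).

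The sulfate list had 28 genes, 24 of them in the files. In NoPP against JEJ, 8 of 16 measured genes were at least 2-fold higher and 1 was lower, beside 9.18% and 14.7% of all genes, with a median log2 ratio of 1.04 beside -0.11. IPP against JEJ also had 8 higher and 1 lower of 16, beside 10.8% and 14.3%, with a median of 1.09 beside -0.12. SLC13A1, which was picked for these differences, is among the 8 and in the median both times. In JEJ against DUOD it was 2 higher and 4 lower of 14, beside 9.23% and 11.4% of all genes. Without the minimum of 20 UMIs the NoPP against JEJ count past 2-fold was 14 in place of 9.

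These ileal sulfate genes covered uptake, activation, transfer and exchange. SULT1E1, the estrogen sulfotransferase, had 1 UMI each in DUOD and JEJ, 637 UMIs in IPP (245 CPM) and 176 UMIs in NoPP (371 CPM), much like SLC13A1. PAPSS2, which makes the sulfate donor PAPS, was at 31.0 CPM in DUOD, 4.46 CPM in JEJ, 72.3 CPM in IPP and 108 CPM in NoPP, and the last was 24.1-fold above JEJ (13.3 to 46.1). PAPSS1 was highest in DUOD at 32.5 CPM and between 4.22 and 5.95 CPM elsewhere. SUOX (sulfite oxidase, which forms sulfate from sulfite) had 0 UMIs in JEJ and was at least 61.4-fold higher in NoPP and at least 19.0-fold higher in IPP.

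Among the SLC26 anion exchangers, SLC26A3 (the chloride-bicarbonate exchanger DRA) had 0 UMIs in JEJ and was at least 52.0-fold higher in NoPP and at least 51.3-fold higher in IPP. SLC26A6, an exchanger that also carries sulfate and oxalate, had 1 UMI in DUOD and stood at 25.3 CPM in JEJ, 76.1 in IPP and 86.4 in NoPP. SLC26A2, a sulfate carrier, was at 20.5, 19.0, 63.8 and 56.9 CPM in DUOD, JEJ, IPP and NoPP, and SLC26A1, a sulfate and oxalate exchanger, had at most 3 UMIs. The paralogue SLC13A4 had 1 UMI, in NoPP. Between the ileal samples SUOX was 3.24-fold lower in IPP than in NoPP (1.92 to 5.38), 1 of 2 sulfate genes past 2-fold there among 14, beside 12.6% of all genes.

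**Figure D5:**
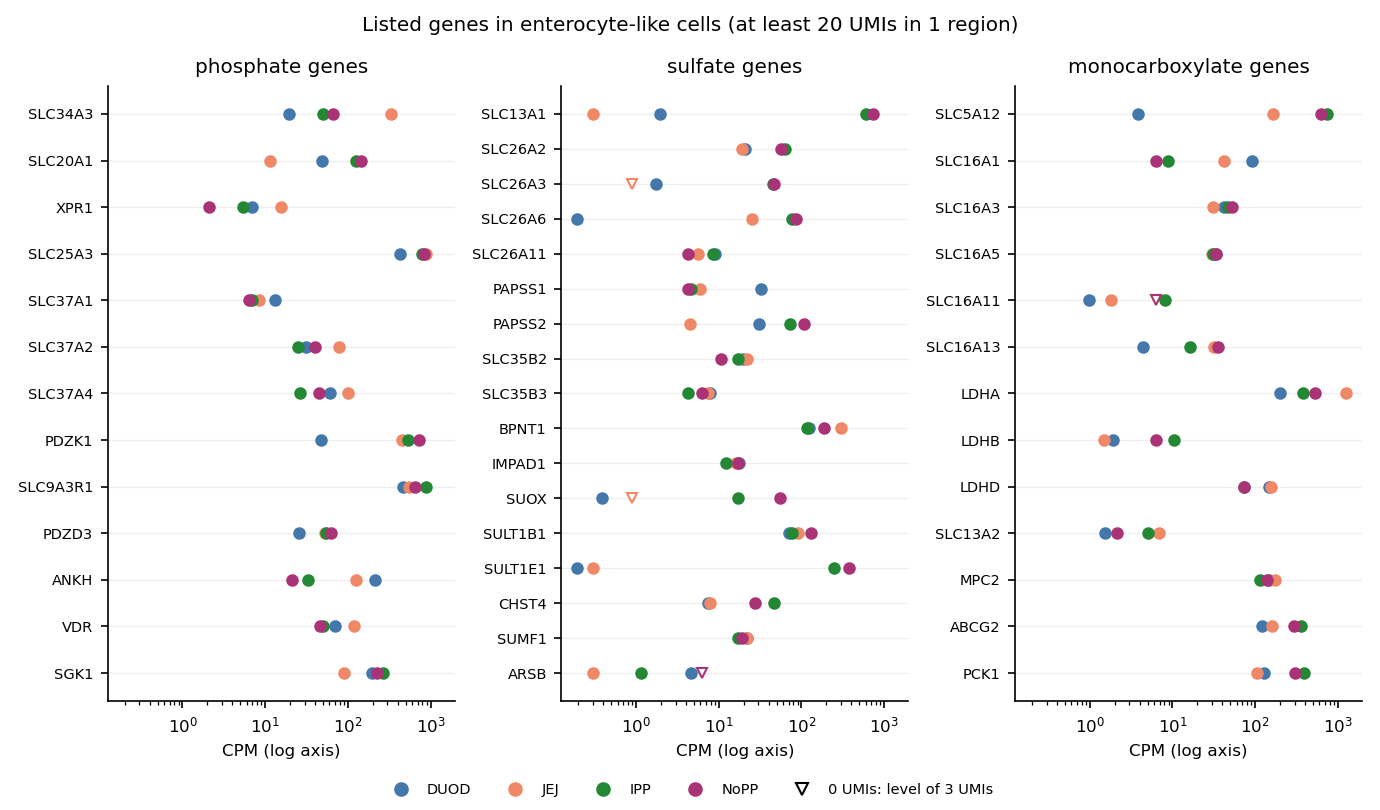
Levels of the listed genes in enterocyte-like cells (CPM, log axis), coloured by region, for genes with at least 20 UMIs in 1 region; open triangles mark 0 UMIs, drawn at the level of 3 UMIs. SULT1E1 and SLC26A3 share the ileal side with SLC13A1, while SLC20A1 has its lowest point in JEJ, where SLC34A3 has its highest at 334 CPM.

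Monocarboxylate genes, a list of 32 with 30 in the files, differed in both directions. In JEJ against DUOD, 4 of 11 measured genes were at least 2-fold higher and 1 lower, beside 9.23% and 11.4% of all genes. In NoPP against JEJ it was 2 higher and 4 lower of 11, beside 9.18% and 14.7%. In IPP against JEJ it was 5 higher and 3 lower of 13, beside 10.8% and 14.3%. SLC5A12, which was picked for these differences, is among the higher genes of each count and in each median. Without the minimum of 20 UMIs the counts past 2-fold were 14 and 16 in place of 6 and 8, and the IPP count was 5 with each cell weighted equally. Median log2 ratios were 0.24, 0.16 and 0.07, beside 0.03, -0.11 and -0.12 over all genes.

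SLC16A1, the proton-coupled lactate carrier MCT1, was highest in DUOD and lowest in ileum. It was at 91.0 CPM in DUOD, 42.2 CPM in JEJ, 8.84 CPM in IPP and 6.32 CPM in NoPP (3 UMIs). Its JEJ level was 2.15-fold below DUOD (1.78 to 2.62), and IPP was 4.78-fold below JEJ (3.06 to 7.78). The paralogue SLC5A8 (SMCT1, the high-affinity carrier) was low throughout, at 0.581, 0.595, 5.77 and 4.22 CPM in DUOD, JEJ, IPP and NoPP. LDHA, a lactate dehydrogenase subunit, peaked in JEJ at 1266 CPM, against 198 in DUOD, 378 in IPP and 529 in NoPP. PCK1, the gluconeogenic PEP carboxykinase, was 3.68-fold higher in IPP than in JEJ (3.26 to 4.17) and 2.89-fold higher in NoPP (2.37 to 3.51). SLC16A13 was 7.22-fold higher in JEJ than in DUOD (4.57 to 11.9).

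Genes with the most similar profile were ranked by Pearson's correlation of log2(CPM + 10) over the 19 region-by-class groups of at least 20 cells, among 5723 genes. Closest to SLC34A3 were GLOD5 (r = 0.902), LEAP2, an antimicrobial and ghrelin-receptor peptide (0.900), the gut chemokine CCL25 (0.895), DHDH (0.895) and LARP4 (0.895). Closest to SLC13A1 were OSR2 (0.949), NR1H4, the bile acid receptor FXR (0.942), the glutamate carrier SLC1A1 (0.926), NID1 (0.911) and CA13 (0.893). NR1H4 stood at 19.0, 22.9, 394 and 407 CPM in DUOD, JEJ, IPP and NoPP enterocyte-like cells. Closest to SLC5A12 were SI (0.954), SDR16C5 (0.951), the water channel AQP8 (0.935), PDZK1 (0.932) and the peptidase MME (0.931). SI stood at 4.26, 1156, 1317 and 1939 CPM in the same order. The 19 groups include immune classes, so a high r need not mean a shared regional profile. From JEJ to NoPP enterocyte-like cells, GLOD5 went from 180 to 187.5 CPM, CCL25 from 1263 to 1016 and LARP4 from 122.5 to 105. LEAP2 went from 416 to 278 CPM and DHDH from 121 to 59, while SLC34A3 was 5.11-fold lower. The 19 groups come from 4 libraries, so these values are a description.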

How the data were processed

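Per the file headers, the deposited files hold raw UMI counts made by Cell Ranger 4 (4.0.6 per the submitters' processing notes). Their genome build, not given in the sources used here, stays unknown, and no coordinates or sequences are printed. All other steps used Python 3.11.15 (numpy 2.4.6, scipy 1.17.1, pandas 2.3.3). Of 25880 genes, 17733 had a symbol in the files and 977 took 1 from the gene name table of Sscrofa11.1.

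Cells were classed by summed UMIs of marker lists per 10000: epithelial at 15 or more, then enterocyte-like at 100 or more, goblet-like at 100, enteroendocrine-like at 50 and BEST4 enterocyte-like at 8. The gate levels were set with the data in view. In the 4 regions, 9, 18, 22 and 3 enterocyte-like cells lay within 2-fold above the level of 100, and 10, 27, 13 and 16 epithelial cells lay within 2-fold below it. Barcodes past the gates of 2 lineages were left out of the named classes, but cells with fewer such markers were kept. Epithelial cells past 2 gates, such as goblet and enterocyte, had no named class but stayed among all epithelial-like cells. As exceptions, BEST4 enterocyte-like cells could also pass the enterocyte gate, and enterocyte-like cells could also pass the crypt gate. No doublet caller was run.

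UMIs were summed over a class and divided by its total. Ratios have exact 95% intervals of 2 Poisson counts, shares have Clopper-Pearson intervals, and 0 UMIs were set to 3 UMIs of the group for a bound. All cover counting error only. The fold calls were checked on simulated counts. Up to 4 genes a list and comparison were named, by the largest ratio among genes with at least 20 UMIs, besides paralogues of the carriers. SLC20A2, SLC26A1 and SLC26A2, and levels of named genes in further regions, were added after their values were seen. The carriers, lists and alternatives were chosen with earlier results of these data known. ALPI, KL, SULT1A1, BPNT2, CHST5, GAL3ST2, SLC16A10 and BSG were listed but found under no symbol.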

Additional observations from a re-analysis of the deposited data

How the results depend on the processing

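No paired analysis was possible because no cell can be traced to a numbered title. Of 105 alternative values of the carrier ratios, 83 stayed within the counting interval of the reported value, 22 moved beyond it and 0 changed the direction of a ratio past 2-fold. Bounds were counted at their limit, so the SLC13A1 bound in IPP against JEJ at the 10% limit need not lie outside its interval. The values below are log2 ratios, and the cause was not tested. With a 10% mitochondrial limit SLC34A3 in IPP against JEJ was -2.26. SLC13A1 was at least 6.31 in IPP against JEJ and at least 0.94 in IPP against NoPP, where 8 NoPP cells had 0 UMIs. SLC5A12 was 0.65 in NoPP against JEJ, 1.96 in IPP against JEJ and 1.31 in IPP against NoPP. With a 40% limit SLC13A1 in IPP against NoPP was -0.062. With the shared barcodes kept, which took NoPP from 33 to 142 enterocyte-like cells, it was 0.21, and SLC5A12 was 1.45 in NoPP against JEJ and 0.73 in IPP against NoPP. With equal weight per cell SLC34A3 in JEJ against DUOD was 3.69, SLC13A1 in IPP against NoPP was 0.048, and SLC5A12 was 4.32 in JEJ against DUOD, 2.48 in IPP against JEJ and 0.54 in IPP against NoPP. Over all epithelial-like cells, IPP against NoPP was 0.24 for SLC34A3, 0.88 for SLC13A1 and 1.41 for SLC5A12, and SLC5A12 in NoPP against JEJ was 0.71. The mix of classes differed in that setting. Enterocyte-like cells were 195 of 315 epithelial-like cells in JEJ, 165 of 252 in IPP and 33 of 136 in NoPP. Without the highest cell of each region SLC5A12 in JEJ against DUOD was 6.89, and SLC13A1 had 0 UMIs in both. It also had 0 in NoPP and JEJ at the 10% limit, so neither gave a ratio. Leaving the 5% deepest cells out put SLC5A12 in IPP against NoPP at 0.44. Taking mitochondrial, ribosomal and the 10 highest genes out of the total put SLC5A12 in IPP against JEJ at 2.35 and moved all NoPP and IPP against JEJ ratios by 0.17 and 0.18.

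Without the minimum of 20 UMIs, counts of list genes past 2-fold were 4 (phosphate), 5 (sulfate) and 8 (monocarboxylate) in IPP against NoPP in place of 0, 2 and 1. They were 11 in place of 6 for sulfate in JEJ against DUOD, 14 in place of 9 for sulfate and 14 in place of 6 for monocarboxylate in NoPP against JEJ, and 16 in place of 8 for monocarboxylate in IPP against JEJ. With equal weight per cell the IPP against NoPP counts were 1, 4 and 3, and monocarboxylate in IPP against JEJ was 5. The 33 NoPP enterocyte-like cells set the precision of every NoPP value.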
